A study of Chlorocebus sabaeus with 6 samples.

Results

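The genes described here encode the nuclear-encoded subunits of the mitochondrial oxidative phosphorylation system, and they were read from a deposited table of gene expression in COS7 cells. COS7 is a fibroblast-like line of African green monkey (Chlorocebus sabaeus) kidney cells, immortalised with SV40. The genes were chosen by symbol (NDUFA, NDUFB, NDUFC, NDUFS, NDUFV, UQCR, COX4 to COX8, ATP5, and SDH followed by A to D), which selected 86 of the 18050 genes in the table. They divide into 36 genes of complex I, 4 of complex II, 5 of complex III, 11 of complex IV, 18 of complex V and 12 assembly factors, which share the NDUFA or SDHA start of their symbols but are no subunits. The groups were 3 samples with both ATL2 and ATL3 knocked out (DKO1 to DKO3) and 3 wild-type samples (WT1 to WT3), all grown in the same serum-containing medium. ATL2 and ATL3 encode atlastins, GTPases that fuse membranes of the endoplasmic reticulum. Neither separate cultures nor the number of knockout clones is stated in the labels, and p-values therefore measure only a spread between samples that may be technical.

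Complexes I to IV pass electrons from NADH and succinate to oxygen and, except for complex II, pump protons out of the mitochondrial matrix. Complex V, the ATP synthase, uses the returning protons to make ATP. Most subunits are encoded in the nucleus, translated in the cytosol and imported, while a few central ones are encoded in mitochondrial DNA, and dedicated assembly factors join the parts. They are housekeeping genes, expressed in nearly all cell types.

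The libraries held between 14197344 and 15693049 estimated counts, of which the 86 genes took 1.16%, 1.13% and 1.38% in DKO1 to DKO3 and 1.24%, 1.24% and 1.22% in WT1 to WT3. The targeted genes checked the labels: ATL2 had 320, 286 and 183 counts in the DKO samples, against 1276, 1211 and 1354 in the WT samples, and ATL3 had 137, 156 and 107 in the DKO samples, against 1046, 956 and 989 in the WT samples. Marker lists moved with genotype too. The 11 fibroblast markers in the table summed to 1525 to 1580 FPKM (counts scaled by the authors to transcript length and library depth) in DKO and 3361 to 3451 FPKM in WT, with vimentin above 1200 FPKM in every library and THY1 at 0 in all of them. Most of this sum is vimentin and FN1, and of its 6 tested genes 3 were lower and 2, PDGFRA and PDGFRB, were higher. The 10 kidney epithelial markers summed to 559 to 725 FPKM in DKO and 779 to 875 FPKM in WT, with 6 of 9 tested genes lower and 2 higher. The 5 endothelial markers summed to 15.1 to 15.7 FPKM in DKO, nearly all of it TEK, and 0.25 to 0.31 FPKM in WT, with PECAM1 and KDR near 0. The 6 white blood cell markers summed to 23.9 to 36.8 FPKM in DKO and 21 to 23.6 FPKM in WT, with PTPRC, CD3E and CD14 near 0. Whether these markers have a part in the results below was not tested. In bulk RNA, fewer cells of a type and less RNA per cell cannot be told apart.

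DKO3 stood apart from the other DKO samples, so counts of called members are given with and without it. So are the calls of single members described below that changed with it, and the values of some others. Differences were taken in log2 CPM, which is counts scaled to library totals after edgeR's TMM normalization, with a small prior count added. For the members, the median size of the difference was 0.07 between DKO1 and DKO2, against 0.05 to 0.08 between WT samples. It was 0.50 between DKO3 and DKO1 and 0.53 between DKO3 and DKO2. Counts and FPKM together give an implied effective transcript length, which in DKO3 differed from that in WT1 by 55.6 nucleotides, against -8.19 nucleotides in DKO1 and -12.1 nucleotides in DKO2 (medians over the members). These differences are largest, in proportion, for short transcripts. The median implied length was 612 nucleotides over the members and 2467 nucleotides over all genes.

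The oxidative phosphorylation genes did not move as a block between the genotypes. With all 6 samples, 13 of the 83 tested members were higher in DKO, 12 were lower and 58 were not called (edgeR quasi-likelihood test, adjusted p under 0.05 over all genes tested). Their median log2 fold change was -0.03, against -0.01 over all 13094 genes. The 25 called members were 30.1% of those tested, while the share among all tested genes was 45.5%, with 23.3% higher and 22.2% lower. Without DKO3, 20 members were higher, 46 lower and 17 not called, a called share of 79.5% against 74.6% of all genes. The split by direction then differed from that of all genes: 24.1% of members were higher and 55.4% lower, against 36.0% and 38.6% of all genes, and the median was -0.17 against -0.03. These shares of all genes, with and without DKO3, are also the background for the counts per complex and per list below. All 25 members called with 6 samples were called in the same direction without DKO3, which added 7 higher and 34 lower members. The 58 members not called had log2 fold changes between -0.83 and 0.52. The 34 that were lower only without DKO3 lay between -0.73 and -0.12 in that fit, and the 7 that were higher only then between 0.17 and 0.41. Leaving out WT1, WT2 or WT3 instead left 4, 5 and 5 members higher and 6, 7 and 6 lower, where 16.0%, 16.4% and 15.9% of all genes were higher and 16.2%, 16.6% and 16.3% lower.

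**Figure D1:**
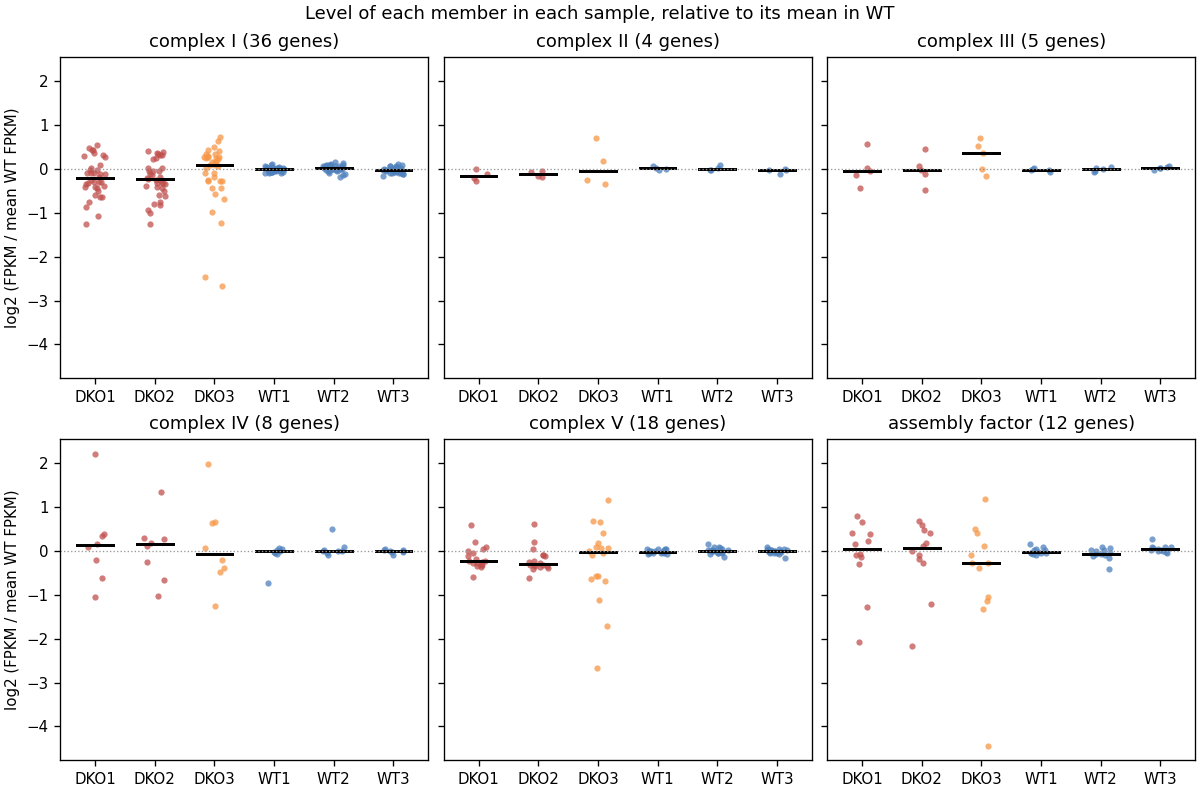
Level of each tested member in each sample as log2 of its FPKM over its mean FPKM in WT, by complex; points are genes and the black line is their median. In complex I the medians are -0.21 in DKO1, -0.23 in DKO2 and 0.10 in DKO3, and between -0.01 and 0.02 in the WT samples, and DKO3 also shows the widest spread. Over all tested genes the medians are -0.02 in DKO1, -0.02 in DKO2 and -0.12 in DKO3. In log2 CPM, the median of complex I in DKO3 relative to the WT mean is 0.32.

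Complex I takes electrons from NADH. Of its 36 nuclear-encoded genes, 5 were higher and 4 lower in DKO, with a median log2 fold change of -0.03. Without DKO3, 8 were higher and 23 lower, with a median of -0.26. These were 22.2% and 63.9%, against 36.0% and 38.6% of all genes. Both of the strongest called decreases were in accessory subunits of the membrane arm. NDUFA1 (gene ID 103247345), which is needed for assembly of that arm, had 90.9, 90.7 and 92.7 FPKM in the DKO samples and 206, 233 and 213 FPKM in the WT samples. In FPKM the groups did not overlap, and DKO3 lay beside the other DKO samples. In log2 CPM, NDUFA1 differed by 0.36 between DKO3 and the mean of DKO1 and DKO2, and by -0.92 between DKO3 and the WT mean. Its log2 fold change was -1.16 by edgeR (SE 0.14, adjusted p = 0.00066). NDUFB3 (gene ID 103217629), also of the membrane arm, had 66.7, 69.8 and 25.2 FPKM in DKO and 135, 137 and 148 FPKM in WT. All DKO samples were below all WT samples, with DKO3 far below the rest. The log2 fold change was -1.31 by edgeR (SE 0.25, adjusted p = 0.0049) with DKO3 and -1.06 without it. NDUFA10 (gene ID 103218204), another membrane-arm accessory subunit, had 70.6, 67.8 and 89 FPKM in DKO and 121, 120.5 and 116 FPKM in WT, a log2 fold change of -0.60 by edgeR (SE 0.15, adjusted p = 0.017). Here DKO3 was the DKO sample nearest to WT.

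The complex I genes that rose were accessory subunits as well. NDUFA8 (gene ID 103218895) had 257, 249.8 and 271 FPKM in DKO and 188, 192 and 194 FPKM in WT, with no overlap and a log2 fold change of 0.50 by edgeR (SE 0.11, adjusted p = 0.0096). NDUFC2 (gene ID 103248104) had 105, 89.2 and 88 FPKM in DKO and 74.1, 71.2 and 68.5 FPKM in WT (0.46, SE 0.11, edgeR adjusted p = 0.015). NDUFA2 (gene ID 103244665), which sits in the matrix arm, had 138, 135 and 144 FPKM in DKO and 108, 113 and 97.8 FPKM in WT (0.46, SE 0.13, edgeR adjusted p = 0.027). In each of these genes every DKO sample lay above every WT sample. To complete the count, the core subunit NDUFS7 was also lower (log2 fold change -0.64) and the accessory subunits NDUFS6 (0.61, and 0.36 without DKO3) and NDUFC1 (0.36) were higher; these were outside the rule for named genes. NDUFB7 had the highest level of complex I, 419.5 ± 68.8 FPKM in DKO and 320.5 ± 13.5 FPKM in WT (SD, n = 3 each). It was not called by edgeR with all samples (0.49, SE 0.20, adjusted p = 0.081) and was higher without DKO3 (0.22, edgeR adjusted p = 0.00012). Limma on FPKM called it higher with all samples (adjusted p = 0.043).

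The core subunits of complex I carry the flavin and the iron-sulfur clusters. NDUFS1, a core iron-sulfur subunit, had 53.5, 55.3 and 57.5 FPKM in DKO and 66.8, 63.8 and 66.2 FPKM in WT. All DKO values were below all WT values, yet edgeR did not call the gene with all samples (-0.20, SE 0.10, adjusted p = 0.13). It was called lower without DKO3 (-0.27, edgeR adjusted p = 3.8e-06) and by limma on FPKM with all samples (adjusted p = 0.039). NDUFV1, which binds the flavin, had 58.3, 57.8 and 82.5 FPKM in DKO and 77.9, 81.2 and 71.5 FPKM in WT. DKO1 and DKO2 were below every WT sample and DKO3 was above them, so the call depended on DKO3: -0.15 (edgeR adjusted p = 0.54) with it and -0.40 (edgeR adjusted p = 1.2e-08) without it. Over the 7 nuclear-encoded core subunits, 0 were higher and 1 lower with all samples, and 1 was higher and 6 lower without DKO3. Of all genes, 23.3% were higher and 22.2% lower with all samples, and 36.0% and 38.6% without DKO3.

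**Figure D2:**
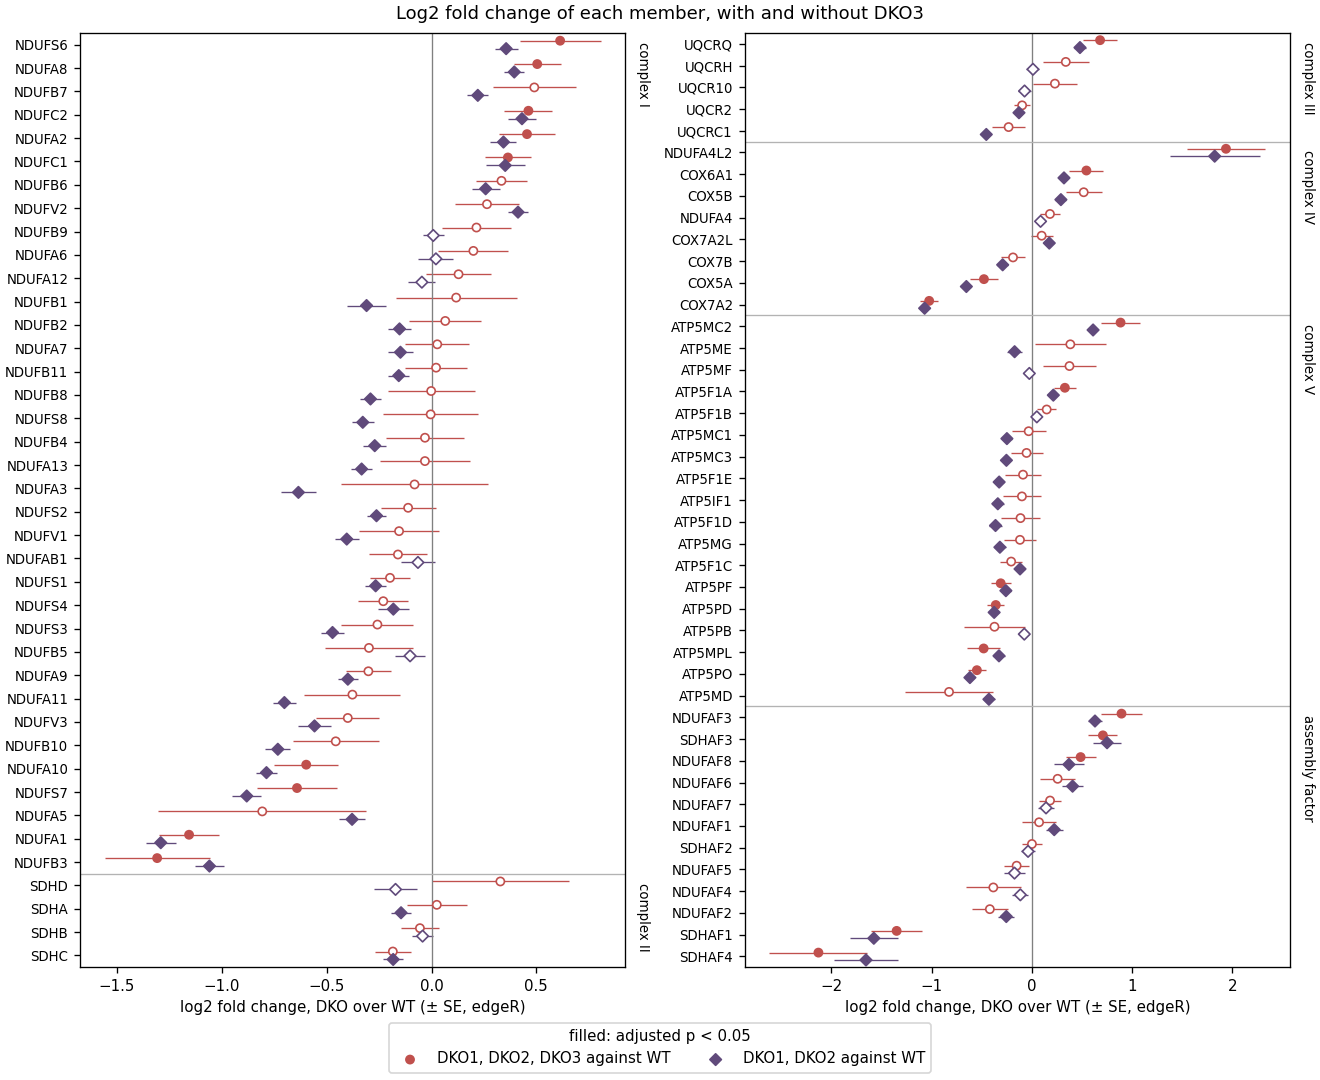
Log2 fold change of each tested member (DKO over WT, ± SE, edgeR) with all 6 samples (circles) and without DKO3 (diamonds), grouped by complex; filled symbols have an adjusted p under 0.05. Without DKO3 the lower symbols of complexes I and V fill in, 23 and 13 genes, against 4 and 4 with all samples.

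Complex II, succinate dehydrogenase, is entirely nuclear-encoded and also belongs to the citric acid cycle. Of its 4 subunits, 0 were called with 6 samples by edgeR, 0 had an unadjusted p under 0.05 and 0 were called by DESeq2, and without DKO3 edgeR called 2 lower. SDHA, the flavoprotein, had 86.6, 81.4 and 106 FPKM in DKO and 94.9, 92.3 and 91.8 FPKM in WT. DKO1 and DKO2 were below every WT sample and DKO3 was above them. Its log2 fold change was 0.03 by edgeR (SE 0.14, adjusted p = 0.9) and turned to -0.15 without DKO3 (edgeR adjusted p = 0.0065). SDHB, the iron-sulfur subunit, had 123, 118 and 104 FPKM in DKO and 121, 126 and 124 FPKM in WT (-0.06, SE 0.09, edgeR adjusted p = 0.64), and the groups overlapped. The membrane anchor SDHC, the most abundant gene of the complex, had 148, 154 and 134 FPKM in DKO and 178, 167 and 167 FPKM in WT. It did not overlap between groups and was called lower without DKO3 (-0.18, edgeR adjusted p = 0.00063) but not with it (-0.18, SE 0.08, edgeR adjusted p = 0.12). The other anchor, SDHD, had 34.6, 40.9 and 69.3 FPKM in DKO and 42.2, 45 and 39.3 FPKM in WT, with DKO3 well above all other samples (0.33, SE 0.33, edgeR adjusted p = 0.45). Without DKO3 its log2 fold change turned to -0.17 and was not called (edgeR adjusted p = 0.13). SDHA, SDHC and SDHD were among 9 members with fractional counts, which can arise where reads match several genes; the share of such reads was not measured.

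Complex III passes electrons from coenzyme Q to cytochrome c. Of its 5 genes found by symbol, UQCRQ was higher and 4 were not called, with a median log2 fold change of 0.23. Without DKO3, 1 was higher and 2 lower, and the median was -0.07. The complex III genes listed by ID only, described below, are outside these values, and all had negative log2 fold changes. Of the 5 genes found by symbol, the most abundant was UQCRQ (gene ID 103244527), a small subunit at the quinone-binding side. It had 316, 288 and 343 FPKM in DKO and 207, 212 and 215 FPKM in WT. The groups did not overlap, and the log2 fold change was 0.68 by edgeR (SE 0.17, adjusted p = 0.014). UQCRC1, a core subunit, had 122, 116 and 163 FPKM in DKO and 165, 165 and 160.1 FPKM in WT. Only DKO3 reached the WT range, and the gene was not called with all samples (-0.23, edgeR adjusted p = 0.3) but lower without DKO3 (-0.45, edgeR adjusted p = 8.6e-13).

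The table lists 8 further subunit genes under locus IDs without a symbol, and RefSeq names them. Of these, 7 were tested, with 0 higher and 3 lower (0 and 6 without DKO3), and 3 belong to complex III. Of all genes, 22.2% were lower, and 38.6% without DKO3. UQCRFS1 (gene ID 103234417), the Rieske iron-sulfur protein that carries electrons within complex III, had 147, 149 and 139.6 FPKM in DKO and 275, 267 and 266 FPKM in WT. All DKO samples, DKO3 included, lay far below WT, with a log2 fold change of -0.84 by edgeR (SE 0.08, adjusted p = 0.00024). UQCRB, which lies at the quinone-binding site, was also lower, with 283 ± 60.5 FPKM in DKO and 410.2 ± 21.4 FPKM in WT (SD, n = 3 each; -0.47, SE 0.11, edgeR adjusted p = 0.012), while UQCR11 was not called with all samples (-0.37, edgeR adjusted p = 0.16). Without DKO3 UQCR11 was lower (-0.61, edgeR adjusted p = 1.4e-12), and limma on FPKM called it lower with all samples (adjusted p = 0.023). UQCRQ and UQCRFS1 thus moved in opposite directions within the same complex.

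Complex IV, cytochrome c oxidase, hands electrons to oxygen, and several of its subunits exist as tissue-specific isoforms. Of 8 tested genes found by symbol, 2 were higher and 2 lower, with a median log2 fold change of 0.14. Without DKO3, 4 were higher and 3 lower, with a median of 0.13. The complex IV genes listed by ID only, given below, are outside these values. Of those tested, only COX6C had a positive log2 fold change with all samples. COX7A2 (gene ID 103243885), the widely expressed isoform of subunit VIIa, had 287, 294 and 251 FPKM in DKO and 599.7, 595 and 594 FPKM in WT. The groups were far apart in every sample, with a log2 fold change of -1.02 by edgeR (SE 0.09, adjusted p = 0.00014), the smallest adjusted p of the 83 tested members. COX5A (gene ID 103245320), a subunit on the matrix side, had 313, 301 and 365 FPKM in DKO and 493, 464 and 479 FPKM in WT (-0.48, SE 0.14, edgeR adjusted p = 0.031). COX6A1 (gene ID 103239250), the widely expressed isoform of subunit VIa and the most abundant gene of the complex, had 786, 745 and 939 FPKM in DKO and 615, 599.5 and 594 FPKM in WT. Every DKO sample was above every WT sample, with a log2 fold change of 0.54 by edgeR (SE 0.17, adjusted p = 0.035), and of 0.32 without DKO3.

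The isoforms differed widely in level. The muscle isoform COX6A2, the lung isoform COX4I2 and COX8C, an isoform known from human testis, had 0 to 2 counts in every library and were not tested. COX7A1, the muscle isoform of subunit VIIa, is listed by ID only; it had 0 counts in all 3 DKO libraries and 33, 34 and 26 counts in WT. Against a floor of 3 counts per library it was at least 10.1-fold lower in DKO, and this bound covers counting error only. Both isoforms of subunit VIIa were thus lower in DKO, while their relative COX7A2L, which is known for linking complexes III and IV, was not called with all samples (71.6 ± 10.5 FPKM in DKO and 68.8 ± 2.75 FPKM in WT, SD, n = 3 each; 0.10, edgeR adjusted p = 0.5) and was higher without DKO3 (0.17, edgeR adjusted p = 0.0023). COX7B, whose DKO values were all below its WT values in FPKM (439 ± 45 FPKM in DKO and 543 ± 27.6 FPKM in WT), was not called by edgeR with all samples (-0.19, adjusted p = 0.24). Its implied length was 165 nucleotides, and in log2 CPM its difference of DKO3 from the WT mean was -0.007. It was called lower without DKO3 (-0.29, edgeR adjusted p = 1.4e-05) and by limma on FPKM (adjusted p = 0.036). NDUFA4, a complex IV subunit despite its symbol, had 713, 721 and 698 FPKM in DKO and 641, 673 and 677 FPKM in WT (0.18, SE 0.10, edgeR adjusted p = 0.19). Its paralogue NDUFA4L2, known in human cells as a gene induced by hypoxia, had only 22, 12 and 22 counts in DKO and 3, 7 and 5 counts in WT. It was higher in every DKO sample (1.94, SE 0.39, edgeR adjusted p = 0.0064), at 1.43 ± 0.411 FPKM in DKO and 0.383 ± 0.155 FPKM in WT. Among the genes listed by ID, COX4I1 (-0.22), COX6C (0.10) and COX8A (-0.14) were not called with all samples. Without DKO3, COX4I1 (-0.51, edgeR adjusted p = 6.1e-14) and COX8A (-0.43, edgeR adjusted p = 5.4e-10) were lower, while COX6C turned to -0.09 and was not called (edgeR adjusted p = 0.16); COX6B2 was too low to test, at 4 to 9 counts per library.

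**Figure D3:**
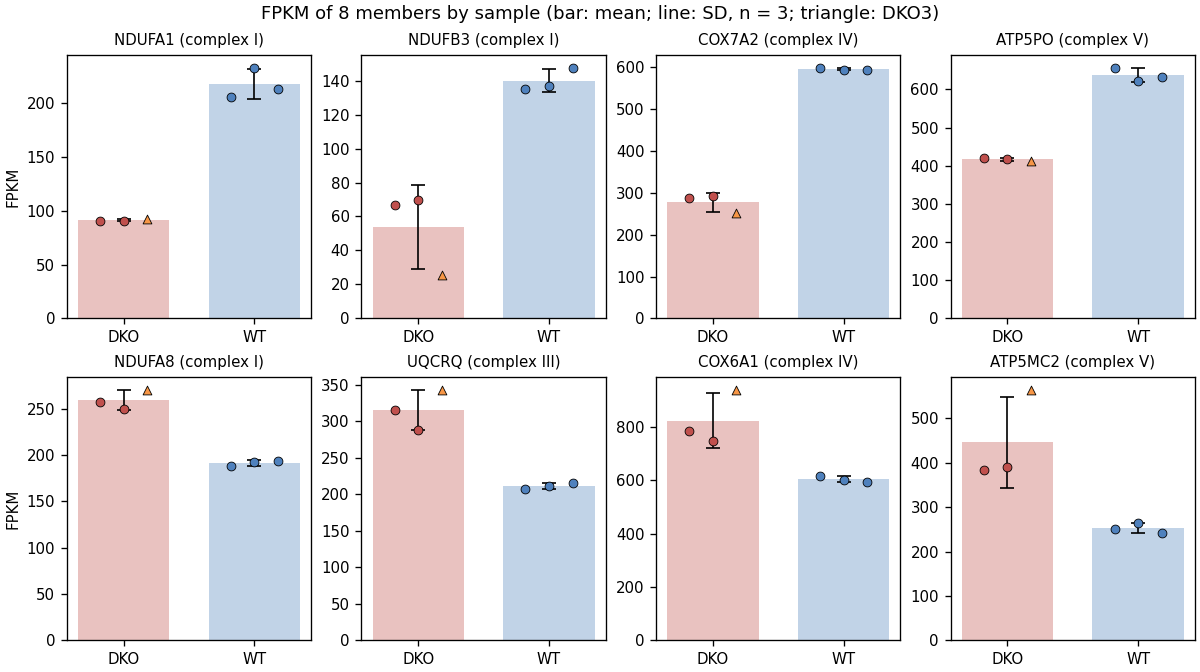
FPKM of 8 members in each sample, with the mean (bar) and SD (line, n = 3); triangles are DKO3. In the upper row (NDUFA1, NDUFB3, COX7A2 and ATP5PO) all DKO samples lie below all WT samples, and in the lower row (NDUFA8, UQCRQ, COX6A1 and ATP5MC2) all lie above.

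Complex V consists of a catalytic head, a peripheral stalk that holds it, and a proton-driven ring in the membrane. Of its 18 genes, which include the inhibitor ATP5IF1 (-0.10, not called; -0.34 and lower without DKO3, edgeR adjusted p = 1.3e-06), 2 were higher and 4 lower, with a median log2 fold change of -0.11. Without DKO3, 2 were higher and 13 lower, with a median of -0.26. These were 11.1% and 72.2%, against 36.0% and 38.6% of all genes. ATP5PO (gene ID 103216644), the stalk subunit that binds the head, had 420.0, 417 and 412 FPKM in DKO and 657, 622 and 631 FPKM in WT. The DKO samples were close together in FPKM and well below WT, with a log2 fold change of -0.55 by edgeR (SE 0.09, adjusted p = 0.0026). The stalk subunit ATP5PD had 414, 393 and 349.8 FPKM in DKO and 525, 495 and 531 FPKM in WT (-0.36, SE 0.08, edgeR adjusted p = 0.011). A further stalk subunit, ATP5PF, had 209, 206 and 152 FPKM in DKO and 238, 249 and 247 FPKM in WT (-0.31, SE 0.10, edgeR adjusted p = 0.04). The stalk genes ATP5PO, ATP5PD and ATP5PF were thus all lower with all samples, while ATP5PB, also of the stalk, was not called (-0.37, SE 0.30, edgeR adjusted p = 0.35). Of these lower calls, only that of ATP5PO held in every fit that left out a sample, as given below. ATP5PB had 226, 215 and 71.1 FPKM in DKO and 238, 210.4 and 249 FPKM in WT, so that DKO3 alone was far from the others. The small membrane subunit ATP5MPL was lower as well (-0.48, edgeR adjusted p = 0.046), which completes the count although it lies outside the rule for named genes.

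ATP5MC2 (gene ID 103238407), a gene for the proton-carrying ring, had 383, 391 and 565 FPKM in DKO and 250.4, 265 and 243 FPKM in WT. All DKO samples were higher, DKO3 most, with a log2 fold change of 0.89 by edgeR (SE 0.20, adjusted p = 0.0096) and of 0.61 without DKO3. The ring protein has further genes: ATP5MC1 (-0.03) and ATP5MC3 (-0.05) were not called with all samples, and both were lower without DKO3, at -0.25 each. ATP5F1A, the alpha subunit of the head, had 738, 734 and 840.1 FPKM in DKO and 651, 614 and 639 FPKM in WT (0.33, SE 0.11, edgeR adjusted p = 0.04; 0.22 without DKO3). ATP5F1B, the catalytic beta subunit, had the highest level of all 86 genes, with 1109, 1106 and 1222 FPKM in DKO and 1067, 1079.9 and 1064 FPKM in WT. Its DKO values all lay above its WT values in FPKM, whose totals, given below, were also higher in each DKO sample than in WT. It was not called (0.15, SE 0.10, edgeR adjusted p = 0.25), also not without DKO3 (0.05, edgeR adjusted p = 0.2). Summed over the complex, the level was 6663 ± 365 FPKM in DKO and 7063 ± 21.2 FPKM in WT (SD, n = 3 each), with DKO3 at 7064 FPKM. The deposited FPKM values have no common total. All genes summed to 625356, 619561 and 642646 FPKM in DKO1 to DKO3 and to a mean of 593592 FPKM in WT. The FPKM levels given here were not scaled to these totals. At a like sum, complex V therefore took a smaller share of the total in DKO3 than in WT.

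The 12 assembly factors help to build complexes I and II and are no subunits of either. Among them 3 were higher and 2 lower, with a median log2 fold change of 0.04, and without DKO3 5 were higher and 3 lower. The largest decreases were in factors of complex II. SDHAF1 (gene ID 103234550), which helps to insert the iron-sulfur clusters of SDHB, had 0.79, 1.44 and 1.52 FPKM in DKO and 3.3, 3.16 and 3.54 FPKM in WT (-1.35, SE 0.25, edgeR adjusted p = 0.0046). SDHAF4 (gene ID 103243929), which acts on SDHA once it holds its flavin, had only 15, 8 and 2 counts in DKO and 40, 29 and 47 counts in WT, after rounding. It was lower in every DKO sample (-2.13, SE 0.49, edgeR adjusted p = 0.011), with DKO3 lowest; without DKO3 the log2 fold change was -1.65. SDHAF3, which acts with SDHAF1, moved the other way, with 3.39, 3.1 and 2.74 FPKM in DKO and 2.16, 1.72 and 1.92 FPKM in WT (0.71, SE 0.14, edgeR adjusted p = 0.0066). Of the complex I factors, NDUFAF3, which acts early, had 31, 29.2 and 44 FPKM in DKO and 18.8, 20.8 and 18.9 FPKM in WT (0.89, SE 0.20, edgeR adjusted p = 0.011), and NDUFAF8 was higher as well (0.49, SE 0.15, edgeR adjusted p = 0.034). NDUFAF2, a late factor with the highest level of the group, had 43.4, 47.5 and 26 FPKM in DKO and 51.2, 54.6 and 55 FPKM in WT; it was not called (-0.42, SE 0.18, edgeR adjusted p = 0.096) with all samples and was lower without DKO3 (-0.25, edgeR adjusted p = 0.0042).

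Of the 25 called members, 10 kept their call in all 6 fits that left out 1 sample: NDUFA4L2, ATP5MC2, NDUFAF3 and SDHAF3 among those higher, and NDUFA1, NDUFB3, COX7A2, ATP5PO, SDHAF1 and SDHAF4 among those lower. The call of NDUFA8 was lost without WT1, and that of ATP5PD without WT1 or WT3. The calls of UQCRQ, COX6A1, NDUFA2 and NDUFS6 were lost without WT1, WT2 or WT3. So were those of NDUFA10, NDUFC2 and ATP5F1A, which were also lost without DKO1, of ATP5MPL, which was also lost without DKO2, and of NDUFC1, NDUFS7, COX5A, ATP5PF and NDUFAF8, which were lost in all fits but that without DKO3. In these fits their edgeR adjusted p lay between 0.051 and 0.14. ATP5F1A, NDUFC1, NDUFAF8 and ATP5PF were also not called by DESeq2, nor ATP5PF and ATP5MPL by limma on FPKM or with an offset for transcript length. Over all genes, the shares called in the fits that left out a sample were 40.1% without DKO1, 41.6% without DKO2, 32.2% without WT1, 33.0% without WT2 and 32.1% without WT3. In the other alternatives they were 46.6% with an offset for transcript length, 37.6% with DESeq2, 45.7% with its size factors in edgeR, 35.6% without the filter on low counts, 45.6% for totals without the 100 most abundant genes, 34.3% with the replicate number as a block, and 46.1%, 45.2% and 36.9% with limma on FPKM with a pseudocount of 1, of 0.1 and without a filter. By FPKM alone, all DKO samples lay above all WT samples in 19 tested members and below them in 28, against 29.1% of all tested genes above and 34.1% below.

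DKO3 differed from DKO1 and DKO2 in the same direction in most members. On the log2 CPM scale, the members had a median difference of 0.40 between DKO3 and the mean of DKO1 and DKO2, against 0.08 over all tested genes, and 58 of the 83 (69.9%) were above both other DKO samples while 19 (22.9%) were below both, against 49.9% and 41.2% of all tested genes. The median difference was 0.47 in complex I, 0.22 in complex II, 0.58 in complex III, 0.30 in complex IV and 0.42 in complex V, while in the assembly factors it was -0.04. On the log2 FPKM scale, which divides by the length of each transcript, the median over the members was 0.19, against 0.00 over all genes. The members are mostly short, and all genes of similar length lay nearer to them. For lengths of up to 500 nucleotides, the log2 CPM median was 0.56 in the members and 0.49 in all genes. In log2 FPKM it was 0.27 and 0.22. DKO1 and DKO2 were both below all WT samples in 45 members, and DKO3 was below them too in 28 of these, above them in 12 and within their range in 5. These are 62.2% below and 26.7% above, against 81.9% and 10.8% of the 5453 genes of the whole table in which DKO1 and DKO2 were both below. DKO1 and DKO2 were both above all WT samples in 23 members, of which DKO3 was above in 19 (82.6%) and below in 4 (17.4%), against 73.7% and 21.8% of the 5173 such genes in the table. With 1 library there is no replicate check of these differences.

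The members that stood furthest above the other DKO samples in DKO3 were ATP5ME, a small membrane subunit of the synthase, NDUFA3 of the complex I membrane arm, and SDHD. ATP5ME had 247, 204 and 397 FPKM in DKO and 234, 261 and 242 FPKM in WT, and DKO3 stood 1.27 above the other DKO samples in log2 CPM. Its log2 fold change was 0.38 (edgeR adjusted p = 0.41) with DKO3 and -0.17 (edgeR adjusted p = 0.029) without it. NDUFA3 had 105, 104 and 190.5 FPKM in DKO and 154, 177 and 142 FPKM in WT, so DKO3 was the highest of the 6 samples and the other DKO samples were the lowest; its log2 fold change was -0.08 (edgeR adjusted p = 0.87), and without DKO3 the gene was lower (-0.63, edgeR adjusted p = 2.8e-09). Those furthest below them were NDUFA5, ATP5MD and SDHAF4. NDUFA5, an accessory subunit of the complex I matrix arm, had 47.7, 43.9 and 9.37 FPKM in DKO and 62.2, 54 and 62.4 FPKM in WT. ATP5MD, a small membrane subunit of the synthase, had 282, 270.4 and 57.3 FPKM in DKO and 344, 369 and 372 FPKM in WT. All DKO values of both genes were below all WT values, but neither was called with DKO3, at -0.81 (SE 0.50, edgeR adjusted p = 0.22) for NDUFA5 and -0.83 (SE 0.44, edgeR adjusted p = 0.17) for ATP5MD. Without DKO3 both were lower, at -0.38 (edgeR adjusted p = 3.1e-07) and -0.43 (edgeR adjusted p = 4.2e-09).

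Transcript length moved with the difference of DKO3. Over the tested genes with an implied length, the median difference of DKO3 from DKO1 and DKO2 was 0.49 in log2 CPM for the 249 genes of up to 500 nucleotides, 0.37 for 913 genes of 500 to 1000, 0.24 for 2839 genes of 1000 to 2000, 0.04 for 4104 genes of 2000 to 4000 and -0.22 for 2347 longer genes. The 80 members with an implied length were mostly short: 28 lay in the first class and 28 in the second, with median differences of 0.56 and 0.38. A further 21 lay in the third class, with 0.27. These medians were near those of all genes in the same classes, 0.49, 0.37 and 0.24. Across genes, length and the difference had a Spearman correlation of -0.29 over all 10452 genes and -0.33 over the members; genes of a library share its depth and length distribution and are no independent replicates. When the implied length of each gene and sample entered the edgeR fit as an offset, 14 members were higher and 13 lower (23.6% and 23.0% of all genes), and without DKO3 21 were higher and 42 lower (36.2% and 38.4% of all genes). ATP5MD has an implied length of 269 nucleotides and NDUFA5 of 1570, and both were far lower in DKO3 than in DKO1 and DKO2 while the medians of their length classes were above 0. What part transcript length has in the difference of DKO3 beyond this was not tested.

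**Figure D4:**
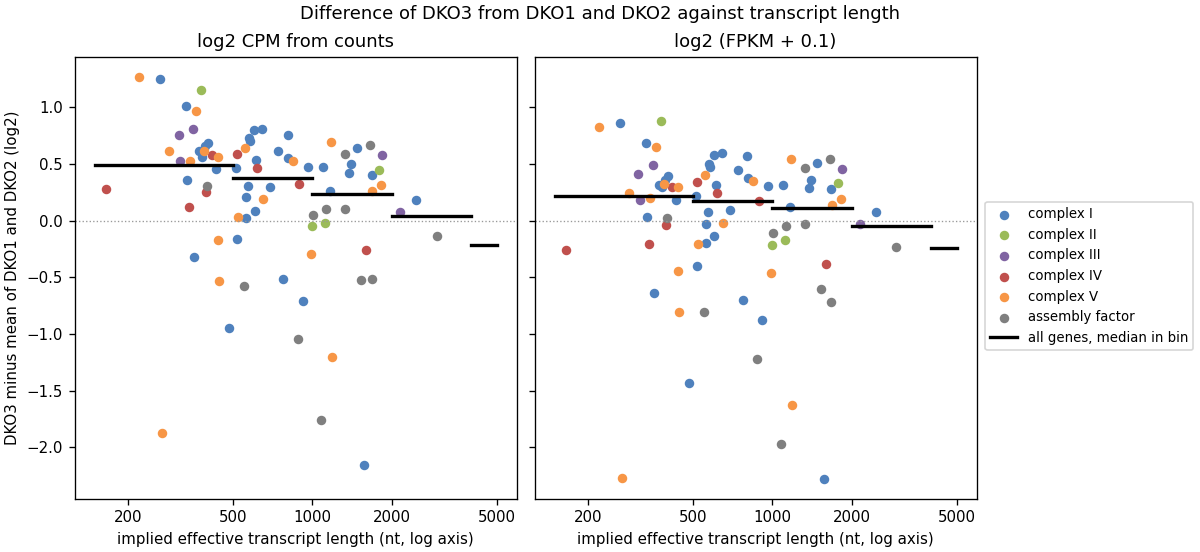
Difference of DKO3 from the mean of DKO1 and DKO2 for each member (points, coloured by complex) against implied effective transcript length in nucleotides (log axis), in log2 CPM on the left and in log2(FPKM + 0.1) on the right; black lines are medians of all genes in a length class. In log2 CPM the medians of all genes run between 0.49 for the shortest class and -0.22 for the longest, and most points of complexes I, III and V lie above 0.

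The members share no position in the genome: they lie on 27 chromosomes of the RefSeq assembly mChlSab1.0.hap1, at most 8 on the same chromosome, and 0 pairs of members are neighbouring protein-coding genes. Coordinates are not given, since the genome build of the table is not known.

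Except for carriers and subunits with other symbols (1 of 2 tested called), other genes of mitochondrial energy metabolism were called in both directions. Their shares were below the 45.5% of all tested genes: 23.4% of further assembly factors, 26.3% of regulators and 42.9% of citric acid cycle enzymes. Those of coenzyme Q synthesis genes and of other mitochondrial membrane proteins were 23.1% and 38.5%. Without DKO3 these shares were 74.5%, 68.4%, 85.7%, 69.2% and 76.9%, against 74.6% of all genes. Among assembly factors outside the symbol rule, 7 of 47 tested were higher and 4 lower (24 and 11 without DKO3). AIFM1, which takes part in the import of respiratory chain subunits, was lower, at 24 ± 0.752 FPKM in DKO and 58.4 ± 2.14 FPKM in WT (SD, n = 3 each; -1.24, edgeR adjusted p = 0.00013). The copper chaperone COX17 (0.90, edgeR adjusted p = 0.0017) and COA4 (1.10, edgeR adjusted p = 0.0026), both factors of complex IV, were higher. Of carriers and subunits with other symbols, CYC1, the cytochrome subunit of complex III, was not called (-0.14, edgeR adjusted p = 0.56; -0.38 without DKO3, edgeR adjusted p = 2.1e-10), and DMAC2L, which associates with the ATP synthase, was higher (1.03, edgeR adjusted p = 0.0094).

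Among 19 tested regulators of respiratory genes and mitochondrial DNA, 1 was higher and 4 lower (3 and 10 without DKO3). The nuclear receptor ESRRG was low in both groups and lower in DKO, at 0.0933 ± 0.0153 FPKM in DKO and 0.687 ± 0.0462 FPKM in WT (-3.02, edgeR adjusted p = 5.4e-05). PPARGC1B, a coactivator of respiratory genes, was lower (-0.72, edgeR adjusted p = 0.0023), and GABPB2, a subunit of a transcription factor of these genes, was higher (0.93, edgeR adjusted p = 0.0087). Of 14 citric acid cycle enzymes, 1 was higher and 5 lower (5 and 7 without DKO3). Fumarase (FH), which acts on the product of complex II, had 29.9 ± 3.3 FPKM in DKO and 64.7 ± 0.801 FPKM in WT (-1.07, edgeR adjusted p = 0.0002), and SUCLG1, a subunit of the enzyme that makes succinate, was lower (-0.78, edgeR adjusted p = 0.00056).

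Of 13 genes of coenzyme Q synthesis, 2 were higher and 1 lower (4 and 5 without DKO3): COQ5 (0.58, edgeR adjusted p = 0.0076) and COQ2 (0.66, edgeR adjusted p = 0.03) rose, and PDSS2 (-0.55, edgeR adjusted p = 0.017) fell. Of 26 other mitochondrial membrane proteins, 7 were higher and 3 lower (8 and 12 without DKO3). Among carriers that supply the ATP synthase, the phosphate carrier SLC25A3 had 537 ± 4.02 FPKM in DKO and 329 ± 8 FPKM in WT (0.76, edgeR adjusted p = 0.00036), while the ADP/ATP carrier SLC25A5 had 399 ± 28 FPKM in DKO and 687 ± 7.13 FPKM in WT (-0.73, edgeR adjusted p = 0.0017). TOMM22, a receptor of the import pore in the outer membrane, was higher (0.79, edgeR adjusted p = 0.00077).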

How the data were processed

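Total RNA of 3 DKO and 3 WT samples was extracted with TRIzol and made into libraries with an mRNA kit, per the labels' protocols, which do not state strandedness. The authors deposited a table that, per the file headers, holds estimated counts and FPKM values (counts scaled by the authors to transcript length and library depth). The submitters' processing notes name HISAT and Bowtie2. The versions, the counter and the build were not given in the sources used here. Between 6.83% and 7.63% of the estimated counts above 0 in a library were not whole numbers. A further 9 columns belong to other samples and stayed out.

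Estimated counts were rounded and tested across the whole table with edgeR 4.0.16 in R 4.3.3 (TMM normalization, filterByExpr by group, quasi-likelihood test, Benjamini-Hochberg over 13094 genes, calls at an adjusted p under 0.05). Fold changes are log2, DKO over WT; the SE is its size over the root of the F statistic. Levels are deposited FPKM values. The implied effective length is the count over the product of FPKM and library total, scaled to nucleotides, for FPKM of at least 1. All 86 members matched a RefSeq gene ID of assembly mChlSab1.0.hap1; 4 have another symbol there, among them UQCR2, which is UQCRC2, and ATP5MPL and ATP5MD, known as ATP5MJ and ATP5MK. Members and lists were chosen with earlier results of these data known. In each complex the text names up to 3 called members in each direction with the smallest adjusted p, the most abundant member, isoforms, core subunits, complex II, the 3 largest rises and falls of DKO3 and, in each other list, up to 3 called genes. NDUFS5, COX6B1, COX7B2, COX7C and the mitochondrially encoded subunits were not analysed here.

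Alternatives were DESeq2 1.42.0, its size factors in edgeR, limma 3.58.1 on log2(FPKM + 1) and log2(FPKM + 0.1) of genes with at least 1 FPKM in 3 samples, no filters on low values, totals without the 100 most abundant genes, subunits only, the replicate number as a block and leaving out each sample. An offset for implied length was added after seeing the data. Python 3.11.15 with matplotlib 3.10.9 drew the figures.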

Additional observations from a re-analysis of the deposited data

How the results depend on the processing

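The counts of called members rest on which samples enter. Leaving out 1 sample at a time gave 4 to 20 members higher and 6 to 46 lower, the upper ends without DKO3. The ranges for higher calls were 0 to 8 in complex I, 0 to 1 in complex III, 1 to 4 in complex IV, 1 to 2 in complex V and 2 to 5 in the assembly factors. Those for lower calls were 2 to 23 in complex I, 0 to 2 in complexes II and III, 1 to 3 in complex IV and 1 to 13 in complex V. Median log2 fold changes ranged over -0.26 to 0.10 in complex I, -0.16 to 0.029 in complex II, -0.07 to 0.35 in complex III, 0.11 to 0.15 in complex IV and -0.26 to 0.00 in complex V. SDHA turned to -0.15 without DKO3 (-0.14 with the length offset as well), and ATP5ME to -0.17 (0.63 at most, without DKO2). The cause was not tested.

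With the length offset and without DKO3, 21 members were higher and 42 lower: 8 and 20 in complex I, 0 and 2 in complex II, 1 and 2 in complex III, 5 and 3 in complex IV, 2 and 12 in complex V and 5 and 3 among assembly factors. With the offset and all samples, 7 complex I and 2 complex V genes were lower; limma on FPKM, with each pseudocount and without a filter, gave 8 and 2. Without the filter on low counts, 2 complex V genes were lower. DESeq2 and totals without the 100 most abundant genes each left 1 complex V gene higher. The median of complex IV was 0.12 with DESeq2 size factors, 0.077 with DESeq2, 0.11 with the length offset, 0.047 in each limma fit, 0.068 without the filter on low counts and 0.10 without the 100 most abundant genes.

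Same-numbered samples deviated from their group means with correlations of 0.02, -0.28 and -0.29. DKO3 dominates the deviations in the DKO group, so these values cannot decide whether the numbers pair samples. With the replicate number as a block, 6 members were higher and 7 lower, with 1 complex I gene higher, 1 higher and 1 lower in complex IV and 1 higher and 1 lower in complex V. At these depths, genes with few counts, such as NDUFA4L2 and SDHAF4, have wide errors.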
